A study of Mus musculus with 24 samples.

Results

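The 7 genes described here, *Tcf7l2*, *Lhx2*, *Lhx9*, *Rora*, *Rorb*, *Barhl2* and *Foxp2*, encode transcription factors known from the thalamus and pretectum, and they were chosen by name among the 54446 genes counted. Their levels were compared between 2 parts of the embryonic brain and between mice with and without *Tfap2b*. The secondary prosencephalon (SP, the telencephalon with the hypothalamus) and the remaining brain, the diencephalon, midbrain and hindbrain (DMH), were dissected from 12 mouse embryos at E14.5, and each piece gave 1 library of polyadenylated RNA. *Tfap2b*+/+ controls and *Tfap2b*-/- mutants came from crosses of heterozygous mice, with 3 embryos of each sex and genotype, so that the 24 libraries form 8 groups of 3. In the mutant allele a PGK-neo cassette sits in exon 4 of *Tfap2b*, and it is carried by every cell of the embryo. The thalamus and pretectum lie within the diencephalon and are therefore a share of DMH, which also holds the midbrain and hindbrain. In such bulk tissue, fewer cells of a type and less RNA per cell cannot be told apart.

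The thalamus relays sensory input to the cortex, and the pretectum, caudal to it, serves visual reflexes. Both arise from progenitor domains of the diencephalon that are set apart by combinations of transcription factors. *Tcf7l2* encodes a nuclear effector of Wnt signalling that marks postmitotic neurons of the thalamus, habenula and pretectum. *Lhx2* and *Lhx9* are closely related LIM-homeodomain genes, and *Lhx2* is also a patterning gene of the cerebral cortex. *Rora* and *Rorb* encode retinoid-related orphan receptors. *Rora* is used in sensory thalamic nuclei and in Purkinje cells of the cerebellum, and *Rorb* in thalamus, cortex and retina. *Barhl2* encodes a BarH-like homeodomain protein of the diencephalon and spinal cord, and *Foxp2* a forkhead protein of thalamus, striatum and Purkinje cells.

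On GRCm38 the genes lie on 6 chromosomes. *Tcf7l2* (ENSMUSG00000024985.18) spans chr19:55741820-55933654 on the forward strand and *Rorb* (ENSMUSG00000036192.15) chr19:18930605-19111196 on the reverse strand. *Lhx2* (ENSMUSG00000000247.11) is at chr2:38339281-38369733 and *Rora* (ENSMUSG00000032238.17) at chr9:68653786-69388246, both on the forward strand. *Lhx9* (ENSMUSG00000019230.14) is at chr1:138825186-138848577 and *Barhl2* (ENSMUSG00000034384.11) at chr5:106452523-106458166, both on the reverse strand. *Foxp2* (ENSMUSG00000029563.16) spans chr6:14901349-15441977 on the forward strand. Only *Rora* shares exon bases with a gene on the other strand, 82 bases with *Gm15511*, which had a mean of 0.00774 CPM (counts scaled to library size).

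Because *Tfap2b* encodes AP-2β, the promoters of the 7 genes were searched for the AP-2 palindrome GCCNNNGGC, which reads the same on both strands. RefSeq windows on GRCm38.p6, from 250 bases before to 50 bases after a start site, were at hand for 6 of the 7 genes, 9 windows in all. The palindrome was in 2 of these 9 windows and in 16.6% of 32851 windows of all genes. An internal start of *Lhx2* had 3 matches, which began 182 and 175 bases before and 35 bases after it, the first and second of them overlapping. The *Rora* start had 1 match, 207 bases before it. The upstream bases of both windows are shown with the matches in capitals, beside those of the first *Tcf7l2* start, the gene with the widest range of levels, where these letters did not occur. All 3 lie on the forward strand, at chr2:38351058-38351307, chr9:68653536-68653785 and chr19:55741560-55741809. A match of letters is a description and says nothing of binding.
*Lhx2* internal start: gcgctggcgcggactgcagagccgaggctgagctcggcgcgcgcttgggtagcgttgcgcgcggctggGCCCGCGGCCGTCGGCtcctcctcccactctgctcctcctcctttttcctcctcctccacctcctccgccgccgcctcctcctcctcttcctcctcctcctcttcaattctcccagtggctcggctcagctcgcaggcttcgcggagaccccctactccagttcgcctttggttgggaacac
*Rora* start: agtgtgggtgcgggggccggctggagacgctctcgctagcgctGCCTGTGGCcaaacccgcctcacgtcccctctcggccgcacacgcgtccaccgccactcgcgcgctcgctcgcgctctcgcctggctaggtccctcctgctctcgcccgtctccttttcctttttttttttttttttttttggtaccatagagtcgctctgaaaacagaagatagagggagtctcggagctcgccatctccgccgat
*Tcf7l2* first start: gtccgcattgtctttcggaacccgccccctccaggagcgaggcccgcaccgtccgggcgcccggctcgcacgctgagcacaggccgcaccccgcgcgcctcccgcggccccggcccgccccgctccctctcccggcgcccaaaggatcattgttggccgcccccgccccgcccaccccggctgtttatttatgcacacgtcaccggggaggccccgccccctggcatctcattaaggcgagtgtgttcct

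The libraries held 24.7 to 66.8 M counts on genes, and 3 counts, the floor of detection used here, were 0.0449 to 0.121 CPM. This floor covers counting error only, because PCR copies are not independent molecules. *Tfap2b* was at 281 to 435 CPM in the 6 DMH controls and at 50.4 to 56.6 CPM in the 6 DMH mutants. In SP it was at 2.75 to 4.72 CPM in every library. Both libraries of female control 2 went against their label, with 4 Y-linked genes that summed to 122 and 133 CPM and with *Xist* at 0.0907 CPM or less, and it is named here as labelled. Female mutant 3, which the study left out of its tests, was left out of the fits here as well unless stated. Its DMH library held 756 CPM of 7 summed muscle markers against 6.54 to 10.1 CPM in the other 11. This library also held 1793 CPM of 5 cartilage markers against 124 to 183 CPM, and 3186 CPM of 8 meninges markers against 698 to 1160 CPM. Summed over 15 *Hox* genes of the hindbrain and spinal cord, 8 DMH libraries had 359 to 533 CPM. The other 4 had 0.0756 CPM (female control 1), 0.211 CPM (female mutant 2), 1.80 CPM (female mutant 1) and 18.7 CPM (male mutant 2). The telencephalon and midbrain markers followed the dissection, as 12 telencephalon markers summed to 2630 to 4170 CPM in SP and to 294 to 445 CPM in DMH, and 8 midbrain markers to 8.57 to 17.3 CPM and 225 to 434 CPM. The hypothalamus markers did not, since 10 of them summed to 27.9 to 86.4 CPM in SP and to 77.5 to 179.5 CPM in DMH. SP holds the hypothalamus by the definition of its name.

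The first question was where the 7 factors were expressed. Of the 7, 5 were higher in DMH than in SP, *Lhx2* was lower, and *Rorb* did not pass the test. *Tcf7l2* had the widest separation, with 14.6, 28.0 and 164 CPM as the lowest, median and highest of 12 SP libraries and 443, 550 and 1150 CPM in DMH. In controls its log2 fold change between DMH and SP was 3.71 (SE 0.63, edgeR adjusted p = 5.07e-04). With each replicate left out in turn it was 3.38 to 4.4. *Rora* was at 5.90, 7.94 and 28.3 CPM in SP and at 64.3, 69.4 and 81.8 CPM in DMH, and every DMH library was above every SP library. Its log2 fold change in controls was 2.56 (SE 0.31, edgeR adjusted p = 3.68e-05). Differential expression was called at the study's thresholds, an adjusted p (FDR) below 0.2 with a log2 fold change beyond 0.5 in size, and 36.2% of all 17530 genes tested passed in this comparison, 21.4% higher and 14.8% lower in DMH.

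*Lhx9* and *Barhl2*, a LIM-homeodomain and a BarH-like gene, were also higher in DMH without overlap. *Lhx9* was at 34.1, 44.5 and 65.1 CPM in SP and at 160, 194 and 315 CPM in DMH (log2 fold change in controls 2.17, SE 0.16, edgeR adjusted p = 3.68e-07). *Barhl2* was at 6.73, 8.74 and 10.2 CPM in SP and at 22.5, 29.6 and 48.3 CPM in DMH (1.89, SE 0.13, edgeR adjusted p = 4.42e-08). *Foxp2* had the smallest called difference, with 56.9, 64.3 and 108 CPM in SP and 179, 190 and 220 CPM in DMH (1.42, SE 0.15, edgeR adjusted p = 5.77e-06). SP therefore held transcripts of each of these 5 genes far above the floor.

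*Lhx2* went the other way from its relative *Lhx9*. It was at 259, 332 and 353 CPM in SP and at 73.0, 94.9 and 155 CPM in DMH, again without overlap, with a log2 fold change of −1.67 in controls (SE 0.11, edgeR adjusted p = 5.05e-08). *Rorb* was at 13.4, 16.9 and 30.5 CPM in SP and at 13.7, 21.3 and 26.1 CPM in DMH. The ranges of *Rorb* overlapped almost entirely, and the region difference in controls was 0.14 on the log2 scale (SE 0.11, edgeR adjusted p = 0.277). Higher expression in DMH was thus called for 5 of the 7 genes, and not for *Lhx2* and *Rorb*. As DMH also holds the midbrain and hindbrain, this comparison cannot place the transcripts in the thalamus or pretectum.

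**Figure D1:**
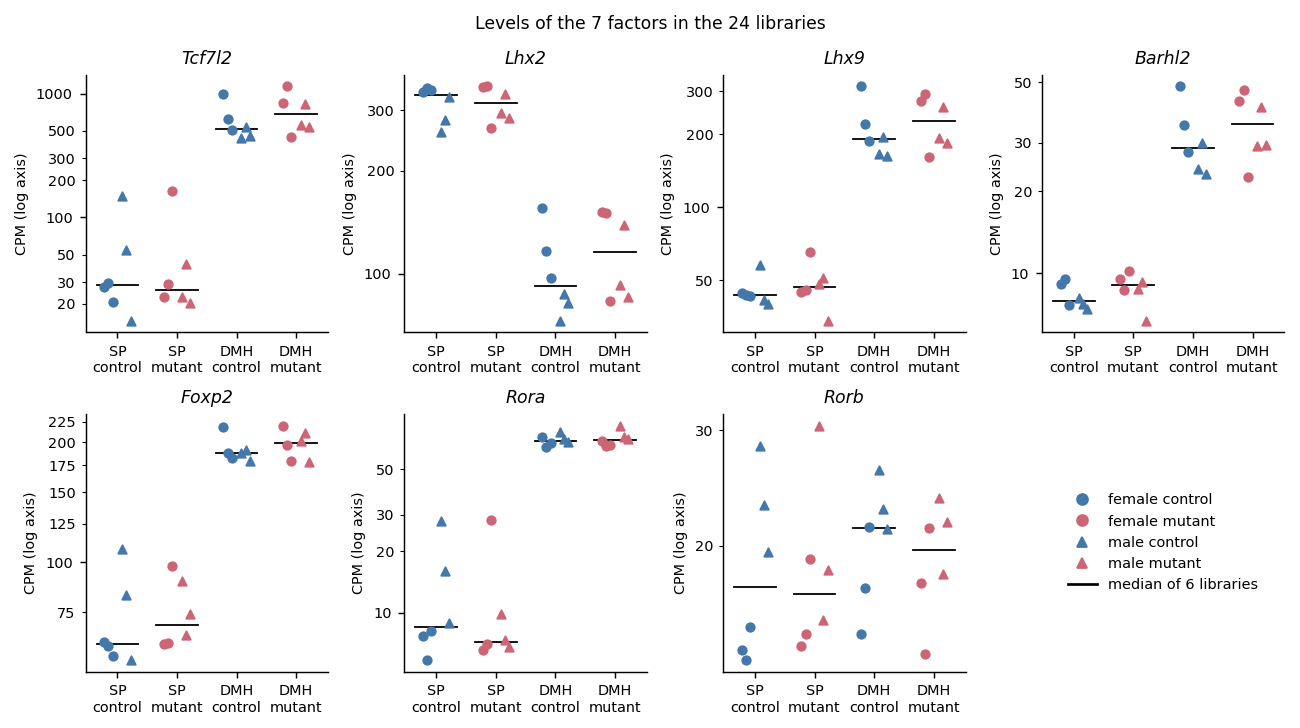
Level of each of the 7 factors (CPM, log axis) in the 24 libraries, by region and genotype, with circles for female and triangles for male embryos, blue for controls, red for mutants, and a line at the median of 6 libraries. *Tcf7l2*, *Lhx9*, *Barhl2*, *Foxp2* and *Rora* sit higher in DMH than in SP, *Lhx2* lower, and *Rorb* overlaps, while a pair of SP libraries stands high for *Tcf7l2* and *Rora*.

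In mutants the same 5 genes passed the thresholds upward and *Lhx2* downward, against 36.6% of 17613 genes tested. The log2 fold change between DMH and SP was 4.76 for *Tcf7l2* (SE 0.27, edgeR adjusted p = 1.29e-07), 3.20 for *Rora* (SE 0.12), 2.36 for *Lhx9* (SE 0.15), 2.07 for *Barhl2* (SE 0.14), 1.46 for *Foxp2* (SE 0.12) and −1.45 for *Lhx2* (SE 0.13). For *Rorb* it was −0.015 (SE 0.18, edgeR adjusted p = 0.954). The difference between genotypes was tested as an interaction. Like the fits by region, it did not pair SP with DMH by number, and a block by number changed no call of the 7. None of the 7 passed, and 0.00546% of 18317 genes did, a single gene, which was *Tfap2b*. The largest interaction terms were 1.22 for *Tcf7l2* (SE 0.67, unadjusted p = 0.0887) and 0.69 for *Rora* (SE 0.34, unadjusted p = 0.054), both with an edgeR adjusted p of 1. Without male control 1, which is described below, they were 0.41 (SE 0.45) and 0.34 (SE 0.21). With female mutant 3 in the fit they were 0.36 (SE 0.81) and 0.13 (SE 0.50).

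Between genes, levels were compared per kilobase of exon. In DMH *Tcf7l2* was the highest of the 7, with a median of 62.6 CPM per kb and a range of 50.5 to 131, above *Lhx2* in every library. *Lhx2* (median 21.6 CPM per kb), *Lhx9* (20.4), *Barhl2* (12.8) and *Foxp2* (11.6) followed, and each overlapped its neighbour in range. *Rora* (5.31 CPM per kb) was below *Foxp2* and above *Rorb* (1.92) in all 12 DMH libraries without overlap. In SP the order was different. *Lhx2* stood alone at the top with 75.5 CPM per kb, and the next, *Lhx9*, had 4.68. *Foxp2* (3.93 CPM per kb), *Barhl2* (3.78), *Tcf7l2* (3.20), *Rorb* (1.53) and *Rora* (0.608) came after it, with overlapping ranges between neighbours.

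The level in SP was then set against that in the DMH library of the same number, taken as the same embryo. For *Tcf7l2* the SP level was 2.52 to 36.5% of the DMH level, with a median of 4.11%. The highest values were those of female mutant 3 (36.5%) and male control 1 (33.7%), and the next, male control 2, had 54.1 CPM in SP and 541 CPM in DMH. *Rora* followed the same order of embryos, with a median of 11.5% and values of 43.2, 37.2 and 22.9% in these 3. For *Lhx9*, *Barhl2* and *Foxp2* the medians were 20.6, 26.6 and 32.3%, and female mutant 3 and male control 1 again took the upper ends, at 40.6 and 34.8%, 45.2 and 33.9%, and 54.4 and 57.5%. These percentages also depend on the DMH level, which for *Tcf7l2* was the lowest of 12 in male control 1 (443 CPM) and the next lowest in female mutant 3 (450 CPM). For *Barhl2* the SP level of male control 1 (8.15 CPM) was below the median of 8.74 CPM, and its DMH level was 24.0 CPM. *Lhx2* was higher in SP in 12 of 12 embryos (218 to 399%). *Rorb* was higher in DMH in 8 of 12 (70.4 to 129%).

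**Figure D2:**
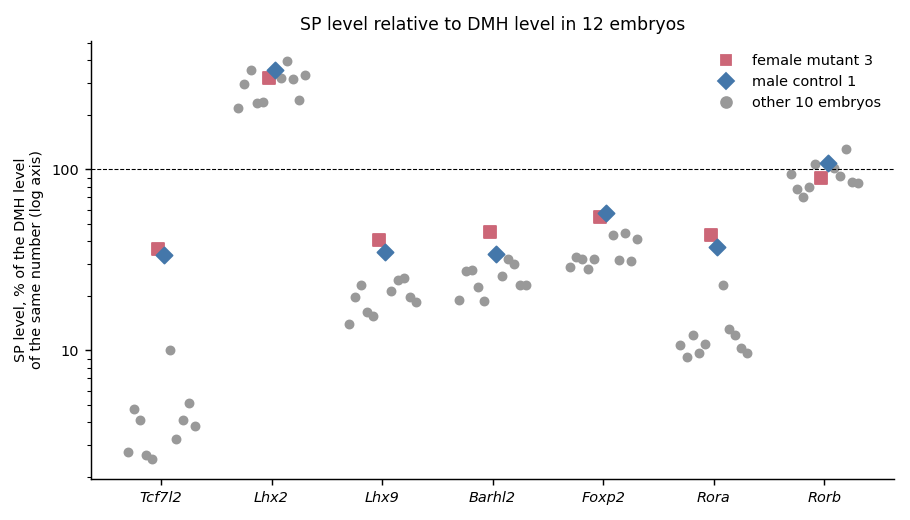
SP level of each factor as a percentage of the DMH level of the same number (log axis), 1 point for each of 12 embryos, with the dashed line at equal levels. Female mutant 3 (square) and male control 1 (diamond) lie at 36.5 and 33.7% for *Tcf7l2*, above the other 10 embryos, and within or near the others for *Lhx2* and *Rorb*.

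The SP libraries of female mutant 3 and male control 1 were looked at more closely because of these *Tcf7l2* values, so what follows is a description without a test. *Tcf7l2* was at 164 CPM in female mutant 3 and at 149 CPM in male control 1, against 14.6 to 54.1 CPM in the other 10 SP libraries. These levels were 6.55 and 5.96 times the median of the 10. *Rora* was at 28.3 and 28.2 CPM against 5.90 to 16.1 CPM, *Lhx9* at 65.1 and 57.8 CPM against 34.1 to 51.2 CPM, and *Foxp2* at 97.8 and 108 CPM against 56.9 to 90.0 CPM. *Lhx2* was below the other 10 in both, at 267 and 259 CPM against 281 to 353 CPM. *Barhl2* and *Rorb* were not outside the range of the 10 in both. Apart from *Tcf7l2*, by which the pair was picked, 3 of the other 6 factors were above the other 10 libraries in both, as were 4.19% of the 17287 genes tested in SP. Nothing is read from this count, because the pair was picked from these same data.

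The same pair of libraries held more transcripts of some other thalamic genes. Of 18 other thalamic factors 9 were above the remaining 10 SP libraries in both. Among all 17287 genes tested in SP, 4.19% were above and 2.3% below in both. Nothing is read from this count or from those of the lists below, because the pair was picked from these same data. *Gbx2*, a homeobox gene of the developing thalamus, was at 13.5 and 10.4 CPM against 0.915 to 4.83 CPM. *Nkx2-2*, which marks the border between thalamus and prethalamus and the rostral thalamus, was at 4.79 and 4.26 CPM against 0.203 to 0.664 CPM. *Sox14*, a gene of rostral thalamic GABAergic neurons, was at 1.85 and 1.98 CPM against 0 to 0.379 CPM. The others were *Ntng1*, *Prox1*, *Cdh8*, *Calb2*, *Slc17a6* and *Gata3*. Outside the thalamus, 4 of 8 hypothalamus markers tested were above in both, among them *Sim1* at 9.68 and 9.88 CPM against 2.16 to 5.71 CPM. None of the 7 habenula markers, 2 of 9 pretectum markers and 1 of 10 prethalamus markers were above in both, 2 of 12 telencephalon markers were below in both, and the 15 *Hox* genes summed to at most 0.126 CPM in any SP library. The part of the dissection in these values was not tested.

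Within DMH, 4 of the 7 factors were higher where the *Hox* level was low. In the 4 DMH libraries with a low *Hox* sum *Tcf7l2* was at 822 to 1150 CPM, against 443 to 628 CPM in the other 8, a ratio of means of 1.86. *Lhx2* was at 139 to 155 CPM against 73.0 to 117 CPM (1.66), *Barhl2* at 40.7 to 48.3 CPM against 22.5 to 34.9 CPM (1.61) and *Lhx9* at 260 to 315 CPM against 160 to 220 CPM (1.56). For these 4 the sets of libraries did not overlap, compared with 10.4% of 17437 genes for which the 4 low-Hox libraries were all above the other 8. *Foxp2* (197 to 220 CPM against 179 to 201 CPM), *Rora* (64.7 to 71.9 CPM against 64.3 to 81.8 CPM) and *Rorb* (13.7 to 18.1 CPM against 17.2 to 26.1 CPM) overlapped. The split at a sum of 100 CPM was chosen after the *Hox* values were seen. Of 18 other thalamic factors, 7 were above without overlap and 1 was below. Above without overlap were also 5 of 8 midbrain, 4 of 10 hypothalamus, 3 of 10 pretectum, 3 of 10 prethalamus, 2 of 7 habenula and 2 of 7 Purkinje cell markers, with none of these lists below. Of 12 telencephalon markers 1 was above and 2 were below, so that most genes of the thalamic, pretectum and telencephalon lists overlapped. The part that the caudal extent of the dissected tissue has in the levels of the 4 factors was not tested.

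**Figure D3:**
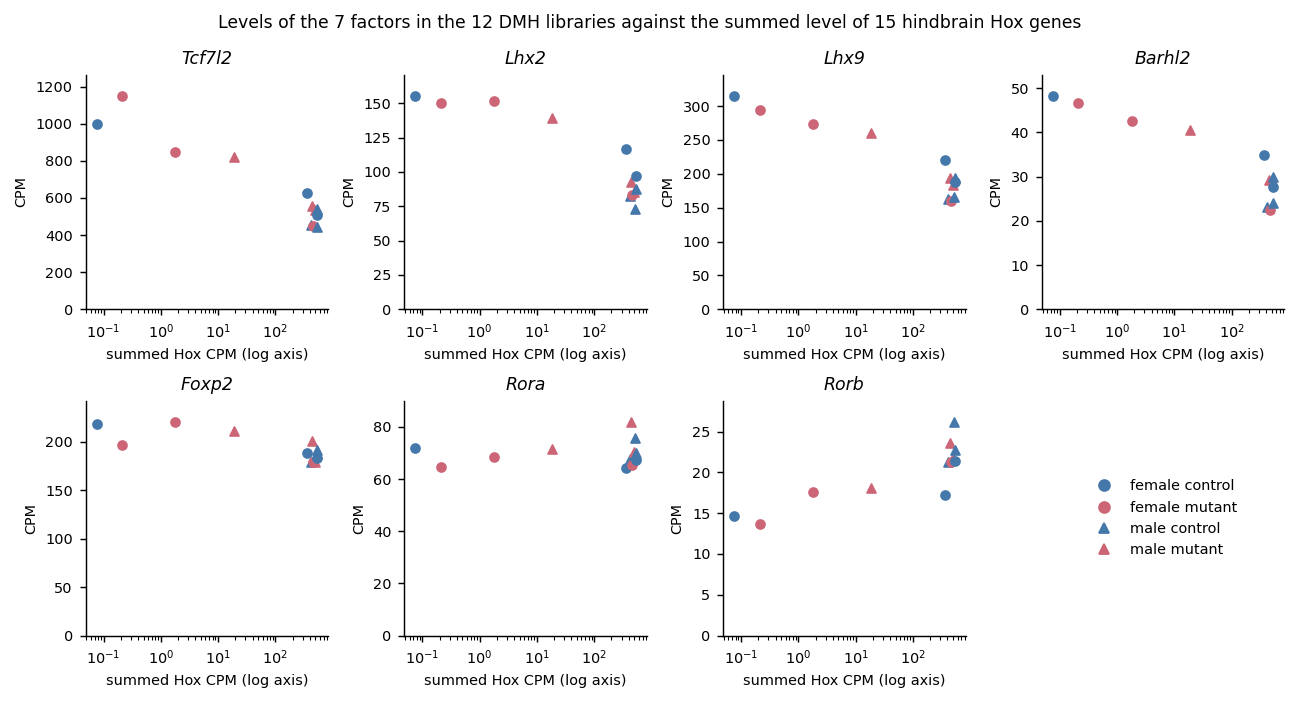
Level of each factor (CPM) in the 12 DMH libraries against the summed level of 15 hindbrain *Hox* genes (CPM, log axis), with circles for female and triangles for male embryos, blue for controls and red for mutants. *Tcf7l2*, *Lhx2*, *Lhx9* and *Barhl2* are higher in the 4 libraries with sums of 18.7 CPM or less than in the 8 libraries with sums of 359 CPM or more, whereas *Foxp2*, *Rora* and *Rorb* overlap.

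The comparison of the study itself was that of mutants with controls, made for each sex and region. In female SP, 0 of the 7 factors passed the thresholds, against 0.0181% of 16615 genes tested (3 genes, with 428 at an unadjusted p under 0.05 and 6 genes called by DESeq2). In male SP 0 of 7 passed, against 0% of 16562 genes (605 at an unadjusted p under 0.05, 7 called by DESeq2). In female DMH 0 of 7 passed, against 0.00596% of 16773 genes (1492 at an unadjusted p under 0.05, 69 called by DESeq2). In male DMH 0 of 7 passed, against 0.0236% of 16962 genes (490 at an unadjusted p under 0.05, 13 called by DESeq2). DESeq2 called none of the 7 in any of these comparisons.

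In DMH *Tcf7l2* was at 996, 628 and 505 CPM in the female controls 1 to 3 and at 848, 1150 and 450 CPM in the female mutants 1 to 3. In males it was at 443, 541 and 454 CPM in controls and at 559, 822 and 534 CPM in mutants. The genotypes overlapped in both sexes, and the 4 highest values were those of the 4 low-Hox libraries. The log2 fold change was 0.50 in females (SE 0.34, edgeR adjusted p = 0.608) and 0.38 in males (SE 0.17, edgeR adjusted p = 0.87). Over both sexes, with sex as a covariate, it was 0.44 (SE 0.19, unadjusted p = 0.0418, edgeR adjusted p = 0.331).

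For *Lhx2*, *Lhx9* and *Barhl2* too the 4 low-Hox libraries were the highest in DMH. *Lhx2* was at 155, 117 and 96.9 CPM in female controls and at 152, 150 and 83.4 CPM in female mutants, and at 73.0, 87.6 and 82.3 CPM and 92.8, 139 and 85.6 CPM in males. *Barhl2* was at 48.3, 34.9 and 27.7 CPM and 42.6, 46.6 and 22.5 CPM in females, and at 24.0, 29.9 and 23.1 CPM and 29.2, 40.6 and 29.3 CPM in males. *Lhx9* was at 315, 220 and 188 CPM and 274, 294 and 160 CPM in females, and at 166, 194 and 163 CPM and 193, 260 and 184 CPM in males. For each of these 3 genes, but not for *Tcf7l2*, female control 1 was above every female mutant. Over both sexes the log2 fold changes were 0.34 for *Lhx2* (SE 0.14, unadjusted p = 0.0421, edgeR adjusted p = 0.331), 0.31 for *Barhl2* (SE 0.14, edgeR adjusted p = 0.335) and 0.25 for *Lhx9* (SE 0.13, edgeR adjusted p = 0.361). None of the 7 passed over both sexes, against 0.0513% of 17555 genes tested (9 genes, with 2613 at an unadjusted p under 0.05 and 51 called by DESeq2). This count over all genes rested on male mutant 1, without which 533 genes passed, 113 upward and 420 downward, and still none of the 7.

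*Foxp2*, *Rora* and *Rorb* differed less between genotypes in DMH. *Foxp2* was at 219, 188 and 183 CPM in female controls and 220, 197 and 180 CPM in female mutants, and at 188, 191 and 179 CPM and 201, 211 and 179 CPM in males. The mean ± SD of *Rora* was 67.9 ± 3.82 and 66.3 ± 2.06 CPM in female controls and mutants and 71.2 ± 4.10 and 74.5 ± 6.32 CPM in males (n = 3 each). Over both sexes the log2 fold change was 0.074 for *Foxp2* (SE 0.056), 0.017 for *Rora* (SE 0.053) and −0.17 for *Rorb* (SE 0.11, edgeR adjusted p = 0.41).

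Since 3 of the 5 DMH mutants fitted, but 1 of the 6 controls, were low-Hox libraries, the genotypes were also compared with the *Hox* level taken into account, in fits chosen after the data were seen. With the log2 *Hox* sum as a covariate the log2 fold change over both sexes was 0.14 for *Tcf7l2* (SE 0.089), 0.11 for *Lhx2* (SE 0.090), 0.096 for *Barhl2* (SE 0.092) and 0.034 for *Lhx9* (SE 0.067). Among the 8 libraries with high *Hox* sums, 5 controls and 3 mutants with female mutant 3 among them, it was −0.003 for *Tcf7l2* (SE 0.12), −0.047 for *Lhx2* (SE 0.11), −0.053 for *Barhl2* (SE 0.15) and −0.061 for *Lhx9* (SE 0.099). In these 8, *Tcf7l2* was at 443 to 628 CPM in controls and at 450 to 559 CPM in mutants. Female mutant 3 was the lowest of the 3 mutants for each of these 4 genes. It had 450 CPM of *Tcf7l2*, 83.4 of *Lhx2*, 22.5 of *Barhl2* and 160 of *Lhx9*, and no fit of the 8 without it was made. Within each genotype the *Tfap2b* levels of the *Hox* sets overlapped, with 384 CPM in the low-Hox control against 281 to 435 CPM in the other 5 controls, and 50.4 to 56.6 CPM in the 3 low-Hox mutants against 51.1 to 54.1 CPM in the other 3.

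The female DMH comparison turned on female control 1, the only control with a low *Hox* sum. Without it 3 of the 7 factors passed upward, compared with 1.4% of 16848 genes (236 genes) upward, while 881 genes passed downward, and the comparison was then between 2 controls with high *Hox* sums and 2 mutants with low sums. The log2 fold change was then 0.83 for *Tcf7l2* (SE 0.16, edgeR adjusted p = 0.0496), 0.53 for *Barhl2* (SE 0.12, edgeR adjusted p = 0.0737) and 0.52 for *Lhx2* (SE 0.092, edgeR adjusted p = 0.0474). *Lhx9* was at 0.49 (SE 0.093, edgeR adjusted p = 0.0506), just under the fold threshold. Genotype and *Hox* level cannot be told apart in this fit.

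**Figure D4:**
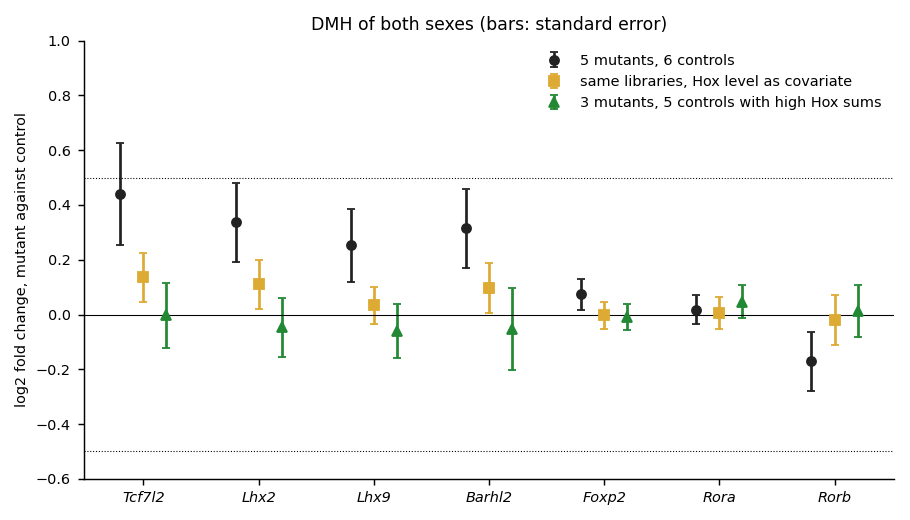
Log2 fold change of mutants against controls in DMH of both sexes for each factor, with bars for the standard error, from 11 libraries (black), from the same libraries with the *Hox* level as a covariate (yellow) and from the 8 libraries with high *Hox* sums (green), with dotted lines at the fold threshold. The value for *Tcf7l2* is 0.44, 0.14 and −0.003 in the 3 fits, and no point reaches the dotted lines. The 8 libraries include female mutant 3, which the other fits leave out.

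In SP the genotype difference of *Tcf7l2* was mostly that of male control 1, and that of *Rora* was smaller without it. *Tcf7l2* was at 149, 54.1 and 14.6 CPM in the male controls and at 22.95, 42.1 and 20.5 CPM in the male mutants, and *Rora* at 28.2, 16.1 and 8.92 CPM and at 9.91, 7.42 and 6.80 CPM. The groups overlapped for both genes. The log2 fold changes in males were −1.34 for *Tcf7l2* (SE 0.71, edgeR adjusted p = 0.967) and −1.13 for *Rora* (SE 0.39, unadjusted p = 0.0196, edgeR adjusted p = 0.967). Without male control 1 they were −0.26 (SE 0.56) and −0.64 (SE 0.31). In females *Tcf7l2* was at 27.2, 29.8 and 20.8 CPM in controls and at 22.5 and 28.9 CPM in mutants 1 and 2, and the log2 fold change was −0.003 (SE 0.19). With female mutant 3, at 164 CPM, it was 1.47 (SE 0.95, edgeR adjusted p = 1), and that of *Rora* moved from −0.096 (SE 0.14) to 0.94 (SE 0.68).

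The other factors were steadier in SP. *Lhx2* was at 338, 348 and 343 CPM in the female controls and at 352, 353 and 267 CPM in the female mutants, the lowest being female mutant 3, and at 259, 281 and 328 CPM and 295, 335 and 286 CPM in males. Over both sexes the log2 fold change was 0.068 for *Lhx2* (SE 0.069), 0.083 for *Barhl2* (SE 0.10), −0.005 for *Lhx9* (SE 0.12), −0.035 for *Foxp2* (SE 0.14) and −0.059 for *Rorb* (SE 0.16). It was −0.74 for *Tcf7l2* (SE 0.49, edgeR adjusted p = 0.922) and −0.67 for *Rora* (SE 0.28, edgeR adjusted p = 0.922), and without male control 1 −0.13 (SE 0.31) and −0.36 (SE 0.19). None of the 7 passed, against 0% of 17348 genes (873 at an unadjusted p under 0.05, 27 called by DESeq2). *Rorb* was at 13.8, 13.4 and 15.02 CPM in the female controls and at 28.4, 23.1 and 19.5 CPM in the male controls, a separation by labelled sex that was not tested. The lowest of these 6, female control 2, is the embryo with Y-linked transcripts, so by transcripts the controls did not separate by sex. In the mutants the sexes overlapped, at 14.03, 14.7 and 19.1 CPM in females and 30.5, 15.4 and 18.4 CPM in males.

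The results that use female control 2 were repeated without it. The calls of the 7 factors were the same, with 5 higher and 1 lower in DMH than in SP of controls and 0 called between genotypes. Among all 17813 genes tested between regions without it, 3855 were higher and 2627 lower in DMH. Between genotypes 2 of 16670 genes passed in female SP and 2 of 16477 in female DMH. Over both sexes 0 of 17527 passed in SP and 3 of 17466 in DMH, and 1 of 18272 passed in the interaction. The log2 fold change of *Tcf7l2* between regions was then 3.57 (SE 0.77) and that between genotypes in DMH of both sexes 0.40 (SE 0.20).

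Most of the other thalamic genes were, like 5 of the 7 factors, higher in DMH. Of 18 other thalamic factors 16 were higher in DMH of controls, 0 were lower and 2, *Foxp1* and *Helt*, were not called, beside 21.4% higher and 14.8% lower among all 17530 genes tested. Their median log2 fold change was 1.87. The 4 most abundant were *Pcdh10*, a protocadherin (0.83, SE 0.065), *Foxp1*, a forkhead relative of *Foxp2* (0.009, SE 0.082), *Slc17a6*, the vesicular glutamate transporter of subcortical neurons (1.23, SE 0.057), and *Cdh8*, a cadherin (1.04, SE 0.077). Between genotypes 0 of the 18 were called in either region of both sexes.

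The counts for the next lists stand beside the same 21.4% higher and 14.8% lower among all genes. Of 7 habenula markers 6 were higher in DMH of controls and *Etv1* was lower (−0.58, SE 0.053), with *Pou4f1*, a POU-domain factor of habenular neurons and of peripheral sensory neurons, at 6.56 (SE 0.32). Of 10 pretectum markers 8 were higher, among them *Ebf3* (4.56, SE 0.10) and *Ebf1* (1.30, SE 0.079), and *Meis2* (−0.63, SE 0.072) and *Bhlhe22* (−2.26, SE 0.098) were lower. Some of these markers are also in other lists, *Pou4f1* and *Pax7* in that of the midbrain, and *Lhx1*, *Lhx5* and *Ebf2* in that of Purkinje cells. A higher level in DMH therefore does not place them in habenula or pretectum. The prethalamus markers went the other way, with 1 higher and 8 lower of 10, among them *Dlx1* (−1.92, SE 0.36) and *Pax6* (−1.25, SE 0.061). Several of these are also genes of the telencephalon, which is part of SP. None of these 3 lists held a gene called between genotypes in either region of both sexes.

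Across the 12 DMH libraries the 4 factors that were higher at a low *Hox* level also rose and fell together. Pearson's r of the log2 levels was 0.98 between *Tcf7l2* and *Lhx9* and 0.975 between *Tcf7l2* and *Barhl2*, and over the 8 libraries with high *Hox* sums 0.97 and 0.976. *Lhx9* and *Barhl2* were the most alike, with r = 0.993 (Spearman's rho 0.979), and 0.984 over the 8 libraries. Among 14515 genes each was the other's nearest in DMH. The gene nearest to *Tcf7l2* was *Nkx2-2* (r = 0.99, rho 0.972, 0.953 over the 8 libraries), followed by *Dnajb1* and *Irf2bpl*. The nearest to *Lhx2* were *Khdrbs1* (r = 0.996), *Pou3f4* and *Ccdc177*. *Rora* and *Rorb* did not join them, with r = −0.159 between *Tcf7l2* and *Rora*, whose nearest was *Senp7* (r = 0.92), and −0.905 between *Tcf7l2* and *Rorb* (−0.572 over the 8 libraries), whose nearest was *Cntn5* (r = 0.989). *Foxp2* had r = 0.765 with *Tcf7l2* and 0.835 with *Lhx9*, which were 0.483 and 0.507 over the 8 libraries, and was nearest to *Id4* (r = 0.958). These are descriptions over libraries that share a dissection, and they fall into the 2 clusters of *Hox* level.

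Across the 12 SP libraries some correlations between factors leaned on the pair that stood apart and others did not. The r between *Tcf7l2* and *Rora* was 0.881 over 12 libraries and 0.413 over the 10 others, and that between *Tcf7l2* and *Lhx9* 0.818 and 0.388. In contrast, r between *Lhx9* and *Barhl2* was 0.677 and 0.8, that between *Rorb* and *Foxp2* 0.793 and 0.814, and that between *Rora* and *Rorb* 0.649 and 0.702. *Lhx2* ran against *Foxp2* (−0.925 and −0.838) and *Rorb* (−0.796 and −0.803) with or without the pair. The genes nearest to *Tcf7l2* were *Slitrk6* (r = 0.964, and 0.826 over the 10), *Syt13* (0.962) and *Shox2* (0.944), and those nearest to *Rora* were *Plekha6* (0.964), *Ntng1* (0.957) and *Rgs9* (0.94). *Lhx2* was nearest to *Dmrt3*, a gene of the cortical primordium (r = 0.975, and 0.952 over the 10). *Lhx9* was nearest to *Rmst* (0.912), *Barhl2* to *Samd3* (0.921), *Foxp2* to *Nalcn* (0.965) and *Rorb* to *Stx16* (0.989).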

How the data were processed

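RNA from the SP and DMH of 12 embryos (24 libraries, dUTP-stranded, polyadenylated RNA, read pairs) was counted by the authors, who trimmed reads with cutadapt 2.4 and aligned them with STAR 2.6.1d to mm10 (GRCm38.p6), per the labels' processing notes. The deposited values are raw counts per gene without normalization, and the annotation release is not given in the sources used here. Fits took the strand-specific column that matches dUTP libraries, with the unstranded column as an alternative, and 1 column of counts entered no fit. The 4 lines that name no gene (unmapped 5.46 to 9.98%, multimapping 4.96 to 7.85%, no feature 4.68 to 7.46%, ambiguous 1.10 to 1.62% of fragments) were left out. Of 54446 gene identifiers 54409 matched a symbol in GENCODE M21 without their version number, and exon lengths and coordinates are from that release.

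Groups were taken from the labels. Levels are CPM with TMM normalization over the 24 libraries. Tests used edgeR 4.0.16 in R 4.3.3 (filterByExpr, robust quasi-likelihood fit, Benjamini-Hochberg adjustment over all genes tested), 1 fit for each comparison, with sex as a covariate where both sexes were fitted, and the test was tried on simulated data. The SE of a log2 fold change is its size over the root of the F statistic. Calls needed an FDR below 0.2 with a log2 fold change beyond 0.5 in size. The replicate number was checked for pairing: the correlations of deviations from the group means were −0.138 to 0.508 between controls and mutants of one number (over 0.1 in 7 of 12 pairs) and 0.0818 to 0.498 between SP and DMH of one number (over 0.1 in 11 of 12). The labels do not say that a number names an embryo. In 24 pairs of libraries of a group the lowest chi-square per gene was 7.01, over genes with at least 50 summed counts, so none was a copy. Alternatives were RLE size factors, no filter, unstranded counts, DESeq2 1.42.0, the replicate number as a block, female mutant 3 included and each replicate left out. Fits by *Hox* level and without doubted libraries were added after the data were seen. Figures were drawn with matplotlib 3.10.9.

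The 7 genes, and 16 lists of genes set beside them (other thalamic factors, family paralogs and markers of habenula, pretectum, prethalamus, telencephalon, hypothalamus, midbrain, Purkinje cells, hindbrain *Hox*, eye, choroid plexus, meninges, blood, muscle and cartilage), were chosen with earlier results of these data known. From a list up to 4 genes with the highest mean CPM were to be named, with any gene called between genotypes. Some listed genes are not reported here by name. Likeness was ranked by r of log2(CPM + 0.5) among genes with a mean of at least 1 CPM, and up to 3 genes were named. Other genes named in the account of the SP pair, in the account of the lists and in the promoter search were chosen after their values were seen. Replicates are separate embryos.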

Additional observations from a re-analysis of the deposited data

Results flagged for a closer look

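Levels of the 7 factors were checked for single libraries far from the other 5 of their region and genotype by Dixon's test, in 28 sets of 6 libraries, of which 7 were flagged. Chance flags about 1 in 20 sets, but these flags are descriptions and no independent test, because the SP pair and the low-Hox libraries were already known from the same values. The SP library of male control 1 was flagged for *Tcf7l2* (149 CPM, the next being 54.1 CPM) and for *Lhx9* (57.8 CPM, next 44.3 CPM). The SP library of female mutant 3 was flagged for *Tcf7l2* (164 CPM, next 42.1 CPM) and for *Rora* (28.3 CPM, next 9.91 CPM). The DMH library of female control 1 was flagged for *Tcf7l2* (996 CPM, next 628 CPM) and for *Foxp2* (219 CPM, next 191 CPM). This library was the control with the low *Hox* sum. The SP library of male mutant 1 was flagged for *Rorb* (30.5 CPM, next 19.1 CPM).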

How the results depend on the processing

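The counts of the 7 factors called kept within 1.5 times in all 55 alternatives that left out no single replicate and in 65 that left 1 out. The exception was female DMH without control 1, and the range there was 0 to 3. Among single genes, log2 fold changes changed sign in 24 such alternatives, and none of the values below was called in the fit reported. With female mutant 3 they were −0.088 for *Lhx2*, 0.942 for *Rora* and 1.473 for *Tcf7l2* in female SP, and 0.11 for *Lhx9*, 0.107 for *Foxp2*, 0.036 for *Rorb* and 0.074 for *Tcf7l2* in SP of both sexes, and 0.038 for *Rorb* in DMH against SP of mutants, and −0.044 for *Foxp2* in the interaction. With the replicate number as a block they were −0.048 for *Barhl2*, −0.002 for *Foxp2* and 0.009 for *Rora* in female SP, and 0.015 for *Rorb* in DMH against SP of mutants. With unstranded counts they were 0.011 for *Tcf7l2* in female SP, and 0.012 for *Lhx9* in SP of both sexes, and 0.009 for *Rorb* in DMH against SP of mutants. Without a filter on low counts it was 0.017 for *Rorb* in DMH against SP of mutants. Among the 8 libraries with high *Hox* sums they were −0.061 for *Lhx9*, −0.047 for *Lhx2*, −0.053 for *Barhl2*, −0.01 for *Foxp2*, 0.012 for *Rorb* and −0.003 for *Tcf7l2* in DMH of both sexes. With the *Hox* level as a covariate it was −0.003 for *Foxp2* in DMH of both sexes. With each replicate left out in turn, the log2 fold changes that changed sign ranged in female SP −0.048 to 0.125 for *Barhl2*, −0.002 to 0.059 for *Foxp2*, −0.01 to 0.07 for *Rorb* and −0.196 to 0.155 for *Tcf7l2*, in female DMH −0.061 to 0.031 for *Rora*, in male SP −0.165 to 0.142 for *Lhx9*, −0.31 to 0.13 for *Foxp2* and −0.475 to 0.053 for *Rorb*. They ranged in male DMH −0.025 to 0.096 for *Rora*, in SP of both sexes −0.05 to 0.094 for *Lhx9*, −0.134 to 0.093 for *Foxp2* and −0.227 to 0.069 for *Rorb*, in DMH of both sexes −0.021 to 0.042 for *Rora*. They ranged in DMH against SP of mutants −0.092 to 0.168 for *Rorb*, in the interaction −0.076 to 0.169 for *Foxp2* and −0.21 to 0.008 for *Rorb*. In female DMH, 3 genes passed without control 1, and their ranges were 0.263 to 0.834 (*Tcf7l2*), 0.16 to 0.516 (*Lhx2*) and 0.112 to 0.526 (*Barhl2*). The cause of these sign changes was not tested. The replicate number as a block changed no call of the 7 factors, and every member count with the block was that of the fit without it. Over all genes the count of calls moved far more. In female DMH it was 1 in the fit reported, 535 without a filter on low counts (80 up, 455 down), 1117 without control 1 (236 up, 881 down) and 0 to 9 without any other replicate. In DMH of both sexes it was 9, then 533 without male mutant 1 and 2 to 10 without any other replicate. Without the filter it was 25 against 3 in female SP, 17 against 4 in male DMH and 12 against 0 in SP of both sexes. The block moved it from 3 to 52 in female SP, from 1 to 35 in female DMH and from 4 to 7 in male DMH. Depth was not limiting for the 7 factors, whose lowest level was 5.90 CPM against a floor of at most 0.121 CPM.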

Other observations

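Of 19 family paralogs of the factors 17 were tested, and in controls 9 were higher and 5 lower in DMH than in SP, beside 21.4% higher and 14.8% lower among all 17530 genes tested. *Lhx1*, a LIM-homeodomain gene of Purkinje cells and the caudal diencephalon among others, was higher (log2 fold change 3.83, SE 0.23, edgeR adjusted p = 1.16e-07), and so was *Lef1*, a relative of *Tcf7l2* and the nuclear partner of β-catenin in the same pathway (1.16, SE 0.11, edgeR adjusted p = 1.73e-06). *Foxp4* was lower (−0.51, SE 0.063, edgeR adjusted p = 3.76e-06). None was called between genotypes in SP or DMH of both sexes.

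Among the remaining lists, to be read against the same 21.4% and 14.8% of all genes, 0 of 12 telencephalon markers were higher and 11 lower in DMH of controls, 8 of 10 hypothalamus markers were higher and 1 lower, 8 of 8 midbrain markers were higher, and 14 of 14 *Hox* genes tested were higher. Of the Purkinje cell markers tested 6 were higher and 1 lower of 7. Eye markers were split, 3 higher and 2 lower of 7. Of 8 choroid plexus markers 4 were higher, of 8 meninges markers 4, of 7 blood markers 0, and of 7 muscle markers 4 were higher and 1 lower. Of 3 cartilage markers tested 1 was lower. Between genotypes in SP and DMH of both sexes, *Dmbx1*, a homeobox gene of the midbrain, was the only gene of these lists to be called, and it was higher in DMH mutants (log2 fold change 0.81, SE 0.084, edgeR adjusted p = 0.00217).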
